A study of Rattus norvegicus with 6 samples.

Results

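The renin-angiotensin genes of cultured neonatal rat ventricular cardiomyocytes (NRVCs) were examined in 6 arrays, 3 from control cultures and 3 from cultures given C3a. The 7 members were chosen by gene symbol for their place in the system, not for their values: Agt, Ace, Agtr1a, Agtr1b, Agtr2, Mas1 and Atp6ap2. They are 7 of the 16575 genes that could be named on the array, and 9 probes represent them. The NRVCs are primary cells from the ventricles of Sprague-Dawley rats aged 1 to 2 days, pooled over several hearts and preplated before culture on collagen. The C3a cultures received recombinant C3a, the anaphylatoxin fragment of complement C3, at 0.5 µg/ml for 12 h, and the control cultures received the medium alone. The sample records describe a serum-free medium, whereas the methods of the study describe 1 h in 1% fetal bovine serum before stimulation. The records do not say whether the arrays of a group came from separate isolations, so the p-values below measure the spread between these samples, which may be technical.

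Angiotensinogen (Agt) is cut to angiotensin I, and angiotensin-converting enzyme (Ace) trims that peptide to angiotensin II. Angiotensin II acts on the heart mainly through the type 1 receptor, which rodents carry as a pair of genes, Agtr1a and Agtr1b, while the type 2 receptor (Agtr2) and Mas1, the receptor of a shorter angiotensin, are generally described as opposing it. Atp6ap2, known as the prorenin receptor, is also an accessory subunit of the proton pump of endosomes and lysosomes. In cardiac muscle the system is known for its part in hypertrophy and fibrosis.

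Of the 7 members, 3 gave a signal that could be compared between the groups: Ace, Agtr1a and Atp6ap2. No array held a detectable signal for Agtr1b, Agtr2 or Mas1, and Agt was detected on 2 of 6 arrays. None of the 3 measurable members passed the adjusted threshold for a difference between C3a and control cultures. That count has to be read against the background of the whole array, where limma called 0 of 23438 probes (0%) at an adjusted p under 0.05. Atp6ap2 had the largest difference of the 3, 0.45 lower on the log2 scale with C3a.

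Levels are given as the log2 intensity of a probe minus the 75th percentile of all probes on the same array. A probe was called detected where the scanner software marked it well above the local background. It was kept for testing when this held on all 3 arrays of at least 1 condition, which left 10390 genes. All 6 arrays lay on 1 slide scanned in 1 session, with the controls in one column and the C3a arrays in the other, so column and treatment cannot be told apart. The local background of control replicate 1 had a median of 47 against 23 to 24 on the other arrays, and 38.6% of its probes were detected against 53.7% to 57.3%. The dimmest probe that counted as detected had an intensity of 56.4 on control replicate 1 and of 10.2 to 11.8 on the others. Dim members could therefore be missed on that control array while a signal of the same brightness was detected on the rest. A dim gene was for the same reason more easily kept through the C3a group than through the controls.

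The 7 measured cardiomyocyte markers were detected on all 6 arrays, and their summed level was 3304 to 4335 times the 75th percentile in the controls and 4158 to 4701 times in the C3a arrays. The cultures also held signal of other heart cells. All 8 fibroblast markers were kept, with a summed level of 97.5 to 111 in the controls and 96.5 to 113 with C3a. All 8 smooth muscle and pericyte markers were kept as well, at 44.2 to 52.9 and 46.9 to 51.1. Their mean log2 levels in the controls ran from 4.70 for Tagln to -4.09 for Rgs5. Those of the fibroblast markers ran from 5.72 for Col1a2 to -3.04 for Lum. The sums therefore mostly follow the brightest genes of a list. Of the 7 measured endothelial markers 5 were kept, at 33.1 to 45.8 and 42.2 to 53.4 over the list. Of 8 macrophage markers 4 were kept, at 5.67 to 7.06 and 5.62 to 6.14, and C1qa and Cd163 were detected on no array. In RNA from a whole culture, fewer cells of a type and less RNA per cell cannot be told apart, and the part of these cells in the levels below was not tested. The brighter of the 2 probes of C3ar1, the receptor of C3a, was detected on all 6 arrays. Its level was -2.08 ± 0.19 (SD, n = 3) in the controls and -1.99 ± 0.20 with C3a, a difference of 0.092 with an adjusted p of 0.851 in limma. The dimmer probe was detected on 4 of 6 arrays, at -3.50 ± 0.15 and -3.65 ± 0.32, and was not kept.

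The DNA just upstream of the members' start sites is shown for the type 1 receptor pair, of which one gene was measured and the other was not, and for Atp6ap2, the member with the largest difference. Each is the 250 bases before the RefSeq start on the GRCr8 assembly, read 5′ to 3′ on the strand of the gene, with every CG dinucleotide in capitals. Agtr1a lies on the minus strand at chr17:34435433-34435682, Agtr1b on the minus strand at chr2:104849263-104849512 and Atp6ap2 on the minus strand at chrX:12883671-12883920.
Agtr1a: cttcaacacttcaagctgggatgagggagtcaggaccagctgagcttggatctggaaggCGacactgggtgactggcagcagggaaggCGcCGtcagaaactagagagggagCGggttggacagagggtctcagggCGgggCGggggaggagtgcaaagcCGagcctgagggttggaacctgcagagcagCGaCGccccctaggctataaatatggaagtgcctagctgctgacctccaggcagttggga
Agtr1b: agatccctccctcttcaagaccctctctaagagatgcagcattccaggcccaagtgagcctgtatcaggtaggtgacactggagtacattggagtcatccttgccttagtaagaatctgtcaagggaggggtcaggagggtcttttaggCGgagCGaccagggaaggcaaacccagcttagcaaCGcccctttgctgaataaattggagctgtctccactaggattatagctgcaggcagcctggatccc
Atp6ap2: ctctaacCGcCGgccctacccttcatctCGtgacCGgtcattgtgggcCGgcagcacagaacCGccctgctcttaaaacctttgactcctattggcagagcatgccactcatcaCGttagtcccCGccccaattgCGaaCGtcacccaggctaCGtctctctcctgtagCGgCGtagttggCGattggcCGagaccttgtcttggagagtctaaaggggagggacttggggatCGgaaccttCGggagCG

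The stretch before Agtr1a held 9 CG dinucleotides and that before Agtr1b held 3, while Atp6ap2 had 18 and Ace 23. Agtr2 and Mas1, like Agtr1b not detected, had 2 and 3, and the table used holds no entry for Agt. Over all 33469 promoters in that table the median was 5, with quartiles of 2 and 15. Genes detected on all 6 arrays had a median of 17 (quartiles 10 and 23, 7044 promoters) and genes detected on none a median of 3 (quartiles 1 and 8, 4028 promoters). Ace and Atp6ap2 lay within the quartiles of the genes detected on all arrays, Agtr1a lay just under them, and the receptors that were not detected lay at or next to the median of the undetected genes. The letters TATAAA, searched on both strands, stood on the gene's own strand 45 bases before the start of Agtr1a and on the opposite strand before Ace, and in none of the stretches before Agtr1b, Agtr2, Mas1 or Atp6ap2. They occur on the gene's own strand in 8.06% of all such stretches and on either strand in 12.9%. These matches describe the letters alone.

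The substrate and the converting enzyme were taken first. The single probe of Agt had a level of -2.70, -4.50 and -5.05 on control replicates 1 to 3 and of -4.56, -3.55 and -4.19 on C3a replicates 1 to 3. Only control replicate 2 and C3a replicate 2 were well above background, and the highest value, on control replicate 1, came from an intensity of 42.1 that was below the detection limit of that array. The other intensities ranged from 8.16 to 24.5. Agt was not kept and no difference is given for it.

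The brighter of the 2 probes of Ace was detected on every array. Its level was -1.90, -2.26 and -2.01 on the control arrays and -1.97, -2.01 and -2.07 on the C3a arrays. The C3a values fell within the range of the controls. The means were -2.06 ± 0.18 (SD, n = 3) and -2.02 ± 0.046, a difference of 0.038 on the log2 scale with a 95% interval of -0.24 to 0.31 (limma, adjusted p = 0.928). A change of Ace by a ratio below 0.848 or above 1.24 lay outside this interval. The dimmer probe was detected on control replicates 2 and 3 and C3a replicate 1 and was not kept.

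The receptors differed in detection. Agtr1a had a level of -2.55, -2.51 and -3.07 on the control arrays, of which replicate 1 was not well above background, and of -3.12, -3.07 and -2.59 on the C3a arrays, all detected. Control replicates 1 and 2 and C3a replicate 3 were the higher 3 arrays, and the groups overlapped. The means were -2.71 ± 0.31 (SD, n = 3, with 2 of 3 arrays measured) and -2.93 ± 0.29. The difference was -0.21, with a 95% interval of -0.69 to 0.26 and an adjusted p of 0.767 in limma. By replicate number, C3a minus control was -0.56, -0.56 and 0.48, so the pairs did not share a direction. Leaving out any 1 array moved the difference to between -0.39 and -0.11.

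Agtr1b, Agtr2 and Mas1 were well above background on 0 of 6 arrays. Their intensities were 2.34 to 4.07 on the 5 arrays other than control replicate 1 and 11.9 to 16.3 on control replicate 1, in each case under the dimmest detected probe of the array. Expression of these receptors was not detectable at this signal, which is not the same as absent, and no fold is given. The plot of member levels shows that the single high value of each came from control replicate 1.

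**Figure D1:**
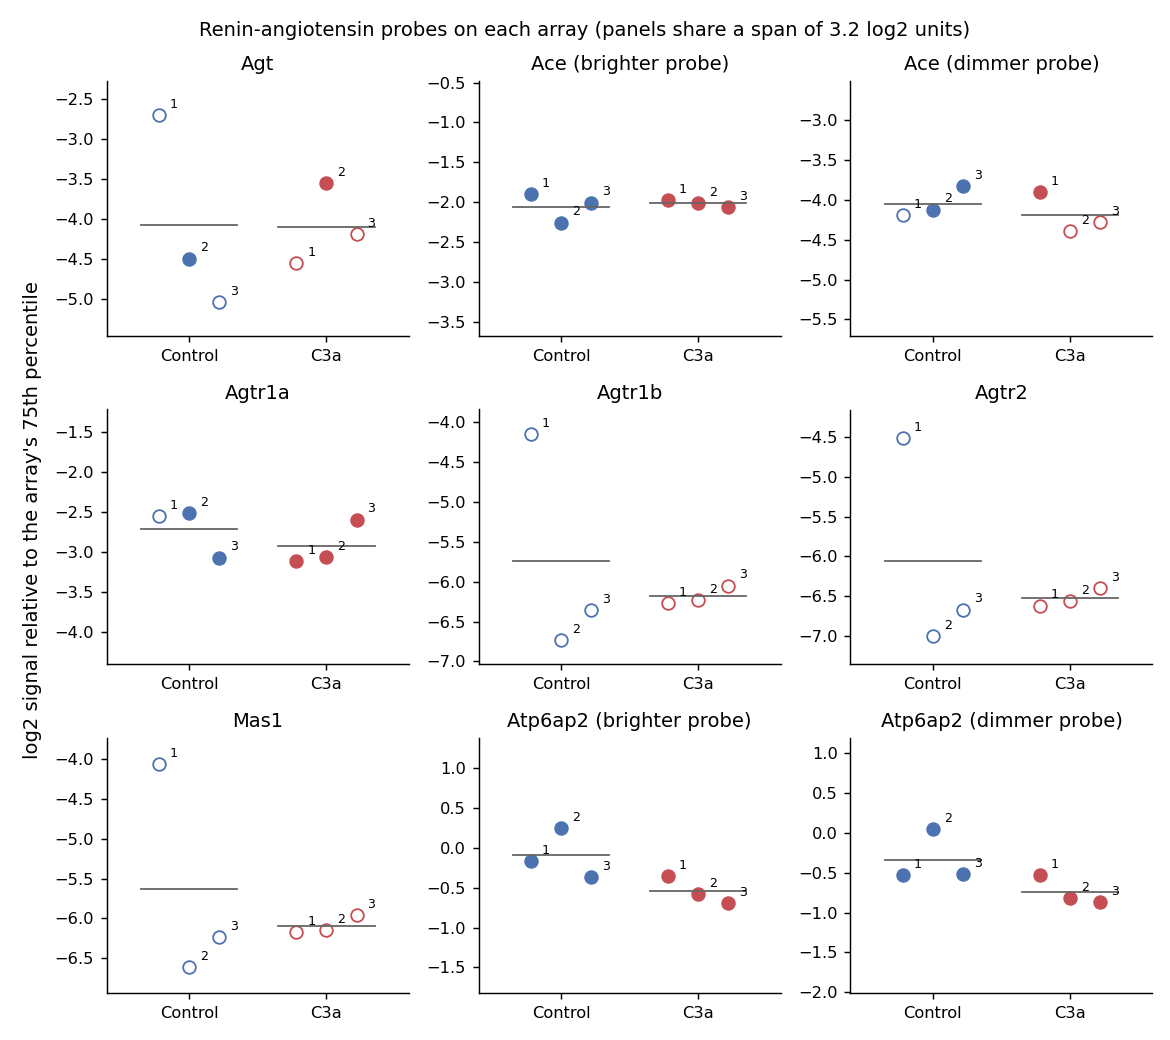
The log2 signal relative to the array's 75th percentile (vertical axis) is plotted for the 9 probes of the 7 members on each of 3 control (blue) and 3 C3a (red) arrays, with replicate numbers beside the points and grey lines for group means. Filled points were well above background and open points were not. Both probes of Atp6ap2 and the brighter probe of Ace are filled on all 6 arrays, whereas Agtr1b, Agtr2 and Mas1 are open on all 6, with control replicate 1 the highest.

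Atp6ap2, the prorenin receptor, was detected by both of its probes on all arrays. The brighter probe had a level of -0.17, 0.25 and -0.36 on the control arrays and of -0.35, -0.58 and -0.69 on the C3a arrays. Control replicate 2 was the highest and control replicate 3 lay just under C3a replicate 1, so the groups overlapped. The means were -0.095 ± 0.31 (SD, n = 3) and -0.54 ± 0.17. C3a minus control was -0.45 with a standard error of 0.18 and a 95% interval of -0.86 to -0.031, a ratio of 0.734. In limma this gave an unadjusted p of 0.0385 and an adjusted p of 0.743, and the probe ranked 1036 of 23438 by p-value. The exact two-sided permutation test over the 6 arrays gave p = 0.2, where 0.1 is the smallest value that 3 against 3 can reach.

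The dimmer probe of Atp6ap2 read -0.53, 0.05 and -0.52 on the control arrays and -0.53, -0.82 and -0.87 on the C3a arrays. Its difference was -0.40 (limma, adjusted p = 0.743), and the 2 probes ran in parallel over the 6 arrays (r = 0.973, a description, since both read the same 6 RNAs). By replicate number the difference of the brighter probe was -0.18, -0.83 and -0.33, lower in 3 of 3 pairs, and that of the dimmer probe was 0.0062, -0.87 and -0.34. The pair of replicate 2 had the largest difference for both probes, and without control replicate 2 the difference of the brighter probe was -0.27. That array also had the highest 75th percentile, an intensity of 367 against 207 to 288 on the others, and the part of this in the result was not tested.

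Among the 3 kept members, 1 (Atp6ap2) had an unadjusted p under 0.05 in limma, against 5.33% of all 10390 genes with a kept probe, and none had C3a values wholly above or wholly below the controls, against 13.0% of all genes. Their median difference was -0.21 against 0.036 over all kept genes. The unadjusted p of Atp6ap2 was 0.0962 by the methods' test and 0.102 with array weights in limma, and 0.0915, 0.0933 and 0.118 in limma without control replicate 2, C3a replicate 2 and C3a replicate 3. In limma it was also 0.0803 with no filter on dim probes and 0.0502 with quantile normalization. The remaining fits in limma gave a p under 0.05. It was 0.0143 without control replicate 3, 0.0182 with a variance trend, 0.0192 with normexp and 0.0255 with the replicate block. That block put more of all kept probes under 0.05, 1832 higher and 1366 lower against 783 and 581. Without scaling the p was 0.0077 and with spike-in scaling 0.0154, while the median over all kept probes was -0.28 and -0.40. With 3 genes the counts of members are a description.

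**Figure D2:**
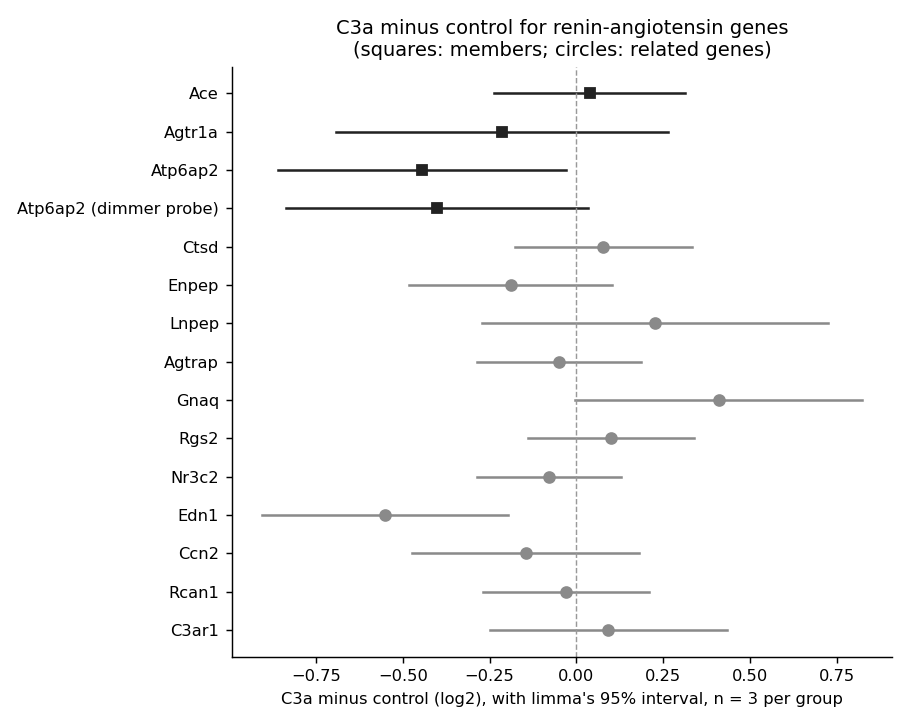
C3a minus control on the log2 scale (horizontal axis, n = 3 per group) is plotted with the 95% interval of limma for the kept members (black squares) and for related genes with a kept probe (grey circles). The intervals of Ace (-0.24 to 0.31) and Agtr1a (-0.69 to 0.26) span 0, that of the brighter Atp6ap2 probe ends at -0.031, and no gene shown passed the adjusted threshold.

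The enzymes that make and trim angiotensins were measured on a wider list. Of 16 genes, 11 (68.8%) were detected on all 6 arrays and kept and 5 on none, against 62.7% kept and 29.9% on none over all named genes. Ctsd, the gene of cathepsin D, a lysosomal protease that can cleave angiotensinogen, differed by 0.078 (adjusted p = 0.833 in limma). The protease genes Cma1, Mcpt1 and Ctsg were not detected on any array. On the side of the Mas receptor, Prcp, whose product removes the last residue of angiotensin II, was not detected either, nor was Mme, the gene of neprilysin. The endopeptidase genes Nln, Thop1 and Prep, whose products can cut angiotensin I to the ligand of Mas1, were detected on all 6 arrays. Enpep, the aminopeptidase that turns angiotensin II into angiotensin III, had a difference of -0.19. Lnpep, the aminopeptidase known as the angiotensin IV receptor, had a difference of 0.23. The adjusted p-values of Enpep and Lnpep in limma were 0.743 and 0.766. Lnpep was 0.054 without C3a replicate 3, 0.062 without control replicate 1, 0.38 without control replicate 3 and 0.37 without C3a replicate 1. By replicate number its difference was 0.27, 0.14 and 0.27, and with the replicate block its unadjusted p in limma was 0.0489 and its adjusted p 0.366. With that block 1832 of all 23438 kept probes were higher and 1366 lower at an unadjusted p under 0.05. Without the block these counts were 783 and 581. Enpep ranged from -0.30 without control replicate 3 to -0.12 without control replicate 2. As reported, these were the ends of the range of the 11 enzymes, of which 8 lay above 0 and 3 below. Without control replicate 3 the unadjusted p of Enpep in limma was 0.0405 and its adjusted p 0.537. In that fit 1263 of all kept probes were higher and 876 lower at an unadjusted p under 0.05. In the main fit no enzyme had an unadjusted p under 0.05 in limma, against 5.33% of all kept genes. None of the 11 enzymes passed after adjustment. Their median was 0.10 against 0.036 over all kept genes, but it was 0.012 without control replicate 2, -0.011 with quantile normalization, -0.23 without scaling between arrays and -0.35 with scaling to spike-in probes. The median over all kept probes was 0.022 with quantile normalization, -0.28 without scaling and -0.40 with spike-in scaling.

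**Figure D3:**
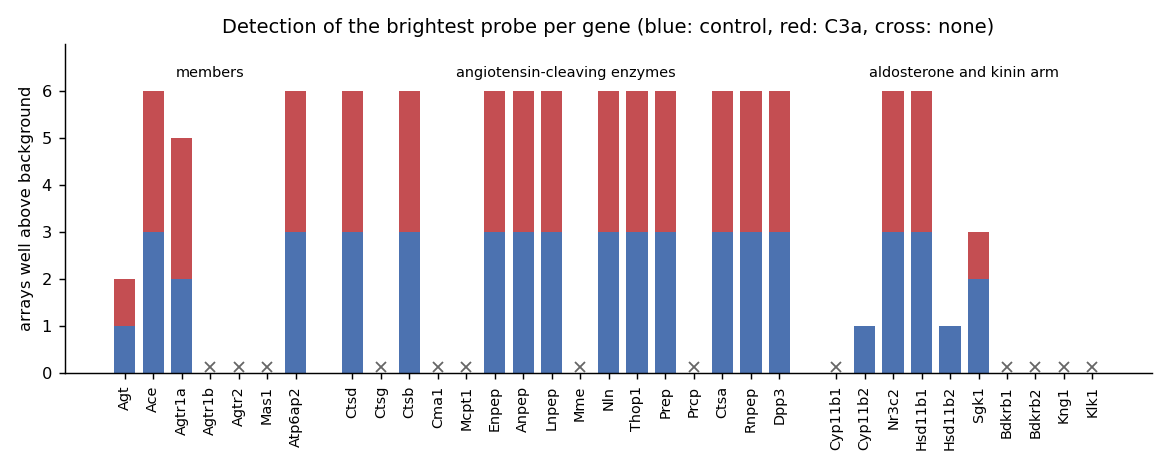
The number of arrays (vertical axis, 0 to 6) on which the brightest probe of a gene was well above background is plotted for the 7 members, 16 angiotensin-cleaving enzymes and 10 genes of the aldosterone and kinin arm, with control arrays in blue, C3a arrays in red and a cross for none. In all, 11 enzymes reach all 6 arrays, whereas 5 enzymes, 3 member receptors and 5 genes of the aldosterone and kinin arm reach none.

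Of the 10 genes of the aldosterone and kinin arm, 2 (20.0%) were kept, against 62.7% of all named genes, and 5 of 10 were detected on no array, against 29.9% of all named genes. The 2 kept genes were detected on all arrays: Nr3c2, the mineralocorticoid receptor, and Hsd11b1, which regenerates glucocorticoid. The difference of the brighter Nr3c2 probe was -0.079 (limma, adjusted p = 0.797), although its 3 C3a values, 0.33 to 0.44, lay below its 3 control values, 0.46 to 0.49. Such a separation was seen in 13.0% of all kept genes. The kinin receptors Bdkrb1 and Bdkrb2, kininogen (Kng1), kallikrein (Klk1) and Cyp11b1 were detected on no array. Cyp11b2, the aldosterone synthase, and Hsd11b2 were detected on 1 array each and Sgk1 on 3, all too few to be kept.

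Of 30 listed partners and signal carriers of the type 1 receptor 28 had a probe and 23 of these (82.1%) were kept, against 62.7% of all named genes, 12 above 0 and 11 below, with a median difference of 0.015. The median was -0.043 with quantile normalization, -0.31 without scaling, -0.43 with spike-in scaling and -0.033 without control replicate 3. In limma 0 passed the adjusted threshold and 1, Src, a kinase downstream of the receptor, had an unadjusted p under 0.05, which is 4.35% of the list against 5.33% of all kept genes. In 4 of the 23 (17.4%) the groups did not overlap, 3 higher and 1 lower with C3a, against 13.0% of all kept genes. The difference of Src, -0.42, was the lower end of the range, and this count of 1 is why it is named. Gnaq, the G protein alpha subunit that links the receptor to phospholipase C, formed the upper end at 0.41. It read -4.10, -3.55 and -3.55 on the control arrays, of which replicate 1 was not well above background, and -3.14, -3.45 and -3.39 on the C3a arrays. The groups of Gnaq did not overlap, its adjusted p was 0.743 in limma, and the exact permutation p was 0.1, the smallest possible. Gnaq was kept through its C3a arrays alone, the group where it was higher, so this separation is no support for a difference. The lowest of its 6 values came from the control array that did not measure it, and without that array the difference was 0.23. Agtrap, which promotes internalisation of the type 1 receptor, had a difference of -0.050 and Rgs2, which dampens Gq signals, of 0.10, with adjusted p-values in limma of 0.886 and 0.778.

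Genes known to respond to angiotensin II were described last. Of 27 such genes 24 (88.9%) were kept, 9 above 0 and 15 below, with a median of -0.026, or -0.35 without scaling and -0.47 with spike-in scaling. None passed the adjusted threshold in limma, and 1, Edn1, had an unadjusted p under 0.05, which is 4.17% of the list against 5.33% of all kept genes. In 2 of the 24 (8.33%) the groups did not overlap, both lower with C3a, against 13.0% of all kept genes. This gene of the endothelin-1 precursor read -3.35, -2.79 and -3.13 on the control arrays, with replicate 1 not well above background, and -3.66, -3.60 and -3.66 on the C3a arrays. Every C3a value of Edn1 lay below every control value. Its difference was -0.55 with a 95% interval of -0.91 to -0.20 (limma, unadjusted p = 0.00787, adjusted p = 0.743). With normexp background correction the difference was -0.17 (limma, unadjusted p = 0.277). The exact permutation p of Edn1 was 0.1, the smallest possible. Ccn2, a matrix-associated growth factor, and Rcan1, a calcineurin feedback gene, had differences of -0.15 and -0.030, with adjusted p-values in limma of 0.767 and 0.934. Without control replicate 2 Ccn2 was -0.014, and without control replicate 3 it was -0.27. Leaving out control replicate 2 turned Rcan1 to 0.012 and leaving out C3a replicate 3 turned it to 0.024.

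**Figure D4:**
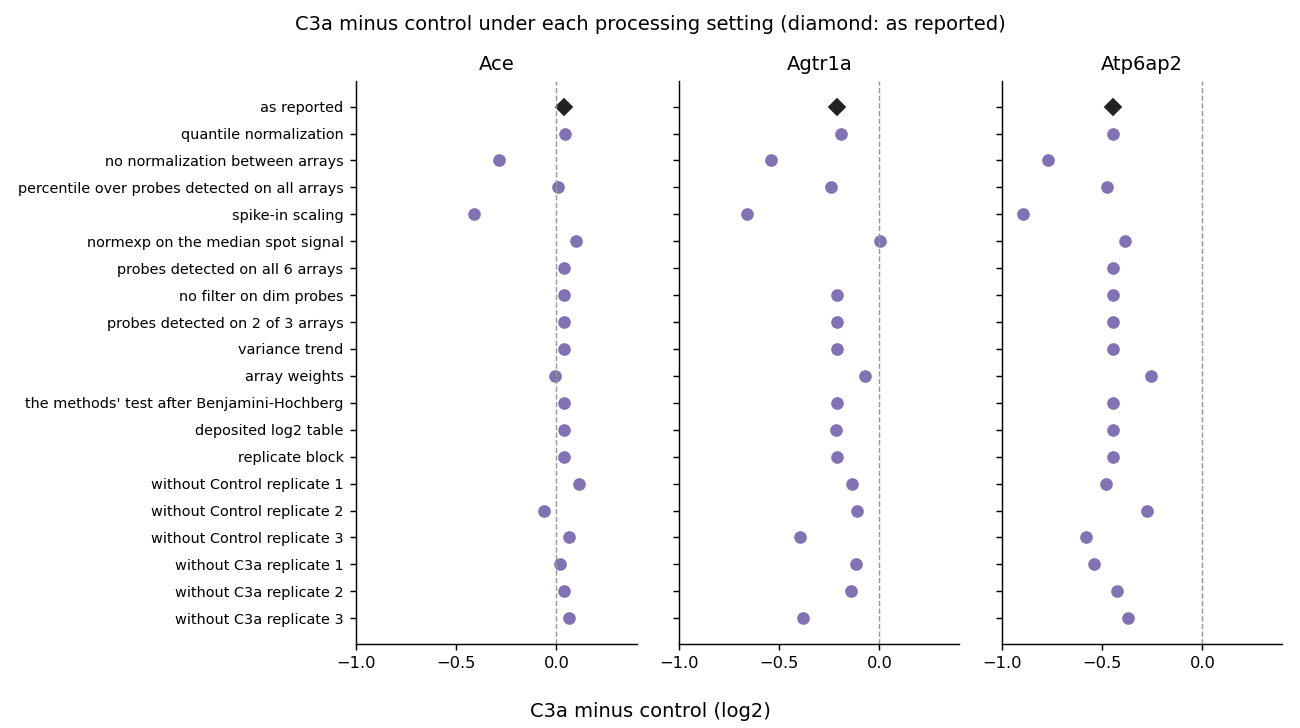
C3a minus control on the log2 scale (horizontal axis) is plotted for Ace, Agtr1a and Atp6ap2 under each processing setting (rows), with a diamond for the value as reported. Atp6ap2 stays below 0 throughout, from -0.89 to -0.26, while Ace crosses 0 and Agtr1a ends at 0.0022 under normexp; Agtr1a has no point where detection on all 6 arrays was required.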

How the data were processed

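RNA of 6 NRVC cultures, grouped by the condition and number in their titles, was hybridised to 1-colour arrays. The authors deposited the spot intensity written by Agilent Feature Extraction 11.5.1.1 (submitters' processing notes), corrected for background and not normalized between arrays, and a log2 table of 36638 probes that equals log2 intensity minus the 75th percentile to within 0.004 at the median, with column medians of -3.13 to -3.00 and no centring. The methods name GeneSpring and an analysis of variance at 0.05.

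Control spots (4259 of 62976) and outlier flags were left out and the spots of a probe averaged. Of 45598 probes, 21092 (46.3%) were named through the accession in RefSeq's gene table for GRCr8. A gene was its brightest probe. No normalization other than the 75th percentile was applied. limma 3.58.1 in R 4.3.3 (lmFit, eBayes, two-sided) was fitted on 23438 kept probes with Benjamini-Hochberg adjustment, and was tested on simulated data. Exact permutation tests used scipy 1.17.1. Figures were drawn with matplotlib 3.10.9. The number of arrays, 3 per group, limits the precision.

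The members, the gene lists and the genes named (all members, the listed genes of the cleaving enzymes and the aldosterone and kinin arm for detection, and a fixed set of others for values) were chosen with earlier results of these data known. Arrays of equal replicate number were alike: deviations from the group mean correlated at 0.28, 0.32 and 0.31 for equal numbers and at -0.26 to -0.093 otherwise. Deviations cancel within a group, so the values for unequal numbers are not independent of the others. The records give only the number, so the pairing rests on these values. Whether equal numbers shared an isolation or a place on the slide was not tested. The main fit did not use the pairing. Alternatives were other scalings, background correction, filters, array weights, a variance trend, the deposited table, the methods' test, the replicate block and each array left out. Normexp (offset 50) was planned on the foreground signal and run on the median spot signal. The results of 3 listed genes are not reported here and do not enter the counts of their lists. Other parts of the study were not analysed here.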

Additional observations from a re-analysis of the deposited data

How the results depend on the processing

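In 17 of 20 alternatives no probe passed the adjusted threshold. Spike-in scaling gave 1 probe higher and 15 lower, no scaling between arrays gave 4 lower, and the methods' test without adjustment gave 752 higher and 356 lower. The median over all kept probes was 0.048 as reported, -0.28 without scaling and -0.40 with spike-in scaling. Without scaling and with spike-in scaling, respectively, the difference was -0.29 and -0.41 for Ace, -0.25 and -0.37 for Ctsd, -0.099 and -0.22 for Lnpep, -0.23 and -0.35 for Rgs2 and -0.23 and -0.36 for C3ar1. Spike-in scaling turned Gnaq to -0.039 and quantile normalization turned Ctsd to -0.051. Array weights gave -0.0061 for Ace, 0.0089 for Ccn2 and 0.044 for Rcan1. Normexp gave 0.0022 for Agtr1a. With each array left out in turn Ace ranged from -0.062 to 0.11 (below 0 without control replicate 2), Agtr1a from -0.39 to -0.11, Atp6ap2 from -0.58 to -0.27 and Rcan1 from -0.076 to 0.024. Why these values moved was not tested. Atp6ap2 kept its direction in 21 of 21 alternatives, from -0.89 to -0.26 (array weights), with adjusted p-values of 0.308 to 0.997, and its mean over both probes was -0.42. Agtr1a kept its direction in 19 of 20 and Ace in 17 of 21. These counts include settings that change only the filter, the test, the variance trend or the block. Such settings leave the difference as it is and could not turn its direction. The mean over kept probes also repeats the reported value for Ace and Agtr1a.

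With the replicate block, the pairing left 0 probes past the adjusted threshold and changed no call. The blocked difference of Atp6ap2 was -0.45 with an adjusted p of 0.308. Kept members numbered 3 with detection on 2 of 3 arrays and 2 with detection on all 6 arrays, where Agtr1a was lost. They numbered 3 with each array left out, a check chosen after seeing the data. Signal over background limits the dim members, foremost on control replicate 1.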

Other observations

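Atp6ap2 is also an accessory subunit of the vacuolar proton pump. The 15 other pump genes looked at here were chosen after the value of Atp6ap2 was seen, so they are described without a test. All 15 were detected on all 6 arrays. Their differences had a median of -0.012 and ran from -0.35 for Atp6v1d, a stalk subunit, to 0.17 for Atp6ap1, the other accessory subunit, with 7 above 0 and 8 below. The groups did not overlap for 4 of the 15, 1 higher and 3 lower with C3a, against 13.0% of all kept genes. Atp6v1b2, a subunit of the catalytic head, was at -0.34. Atp6ap2 was at -0.45 as reported, below this range. It was at -0.27 without control replicate 2, a fit for which the range of the pump genes is not given.

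The genes whose level followed Atp6ap2 most closely over the 6 arrays were Stxbp3, a syntaxin-binding protein of vesicle docking (r = 0.996), and Efr3a, a plasma membrane anchor of a lipid kinase complex (r = 0.993). Stxbp3 read 3.03, 3.24 and 2.97 on the control arrays and 2.98, 2.87 and 2.83 on the C3a arrays, with control replicate 2 the highest, as for Atp6ap2. The genes closest to Ace were Dnal1, a dynein light chain (r = 0.994), and Tmem104, a predicted membrane protein (r = 0.993). With 6 arrays that share 1 slide, 81 of 8555 genes exceeded 0.95 with Atp6ap2 (0.947%) and 129 with Ace (1.51%), so these are the ends of a long list.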
